A study of Drosophila melanogaster with 2 samples.

Results

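The cytosolic ribosomal protein genes of Drosophila melanogaster were taken as the protein-coding genes whose FlyBase symbol is Rp, then L, LP or S, then a number and at most a few letters, together with sta, which encodes the small subunit protein SA. There were 86 such genes among 13945 protein-coding genes on the 6 chromosome arms, 48 of the large subunit and 38 of the small subunit. The binding data came from chromatin immunoprecipitation with sequencing of whole embryos of both sexes aged 0 to 24 h. The embryos were of the strain Camta-MiMIC-GFP, in which an eGFP exon inserted into an intron of Camta makes a Camta-eGFP fusion protein, and the precipitation used an antibody against GFP. All samples formed 1 group of 2 biological replicates, numbered 2 and 3, with no untagged or untreated samples analysed here, so that every comparison below is between genes and not between conditions. The tagged protein was measured in all embryonic cells together, so a peak that is strong in few cells and one that is weak in many cells cannot be told apart. The authors' files gave 4033 peaks that passed the irreproducible discovery rate (IDR) step across both replicates, besides relaxed lists of 30000 regions for replicate 2, 29279 for replicate 3 and 30000 for both pooled. The files hold no read counts, so the sequencing depth behind each peak is unknown. A gene was called bound when the summit of an IDR peak lay within 500 bp of any of its annotated start sites.

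Cytosolic ribosomal proteins build the large and small subunits of the ribosome, in near equal amounts, and their genes are among the most strongly transcribed of a growing cell. In Drosophila many of these genes start transcription within a stretch of pyrimidines, the TCT initiator, rather than at the usual initiator, and their promoters are known to use the TBP-related factor Trf2 and the promoter factors M1BP and Dref. Loss of 1 copy of many of these genes gives the Minute phenotype of slow growth and thin bristles. Camta belongs to the calmodulin-binding transcription activators, which are known from plants and animals and whose DNA-binding domain recognises a core of CGCG.

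An IDR peak stood at a start site of 68 of the 86 ribosomal protein genes, or 79.1% (95% Wilson interval 69.3 to 86.3%), against 18.4% of the other protein-coding genes (2551 of 13859) and 18.8% of all genes. The intervals here cover only the number of genes counted. Of the 73 mitochondrial ribosomal protein genes, whose products build the ribosome inside the mitochondrion, 25 or 34.2% were bound (24.4 to 45.7%). Bound genes made up 42 of 48 for the large subunit (87.5%, 75.3 to 94.1%) and 26 of 38 for the small subunit (68.4%, 52.5 to 80.9%), and these intervals overlap. Without the duplicated genes the counts were 39 of 44 for the large subunit (88.6%) and 19 of 26 for the small subunit (73.1%). The difference between the subunits was not tested.

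**Figure D1:**
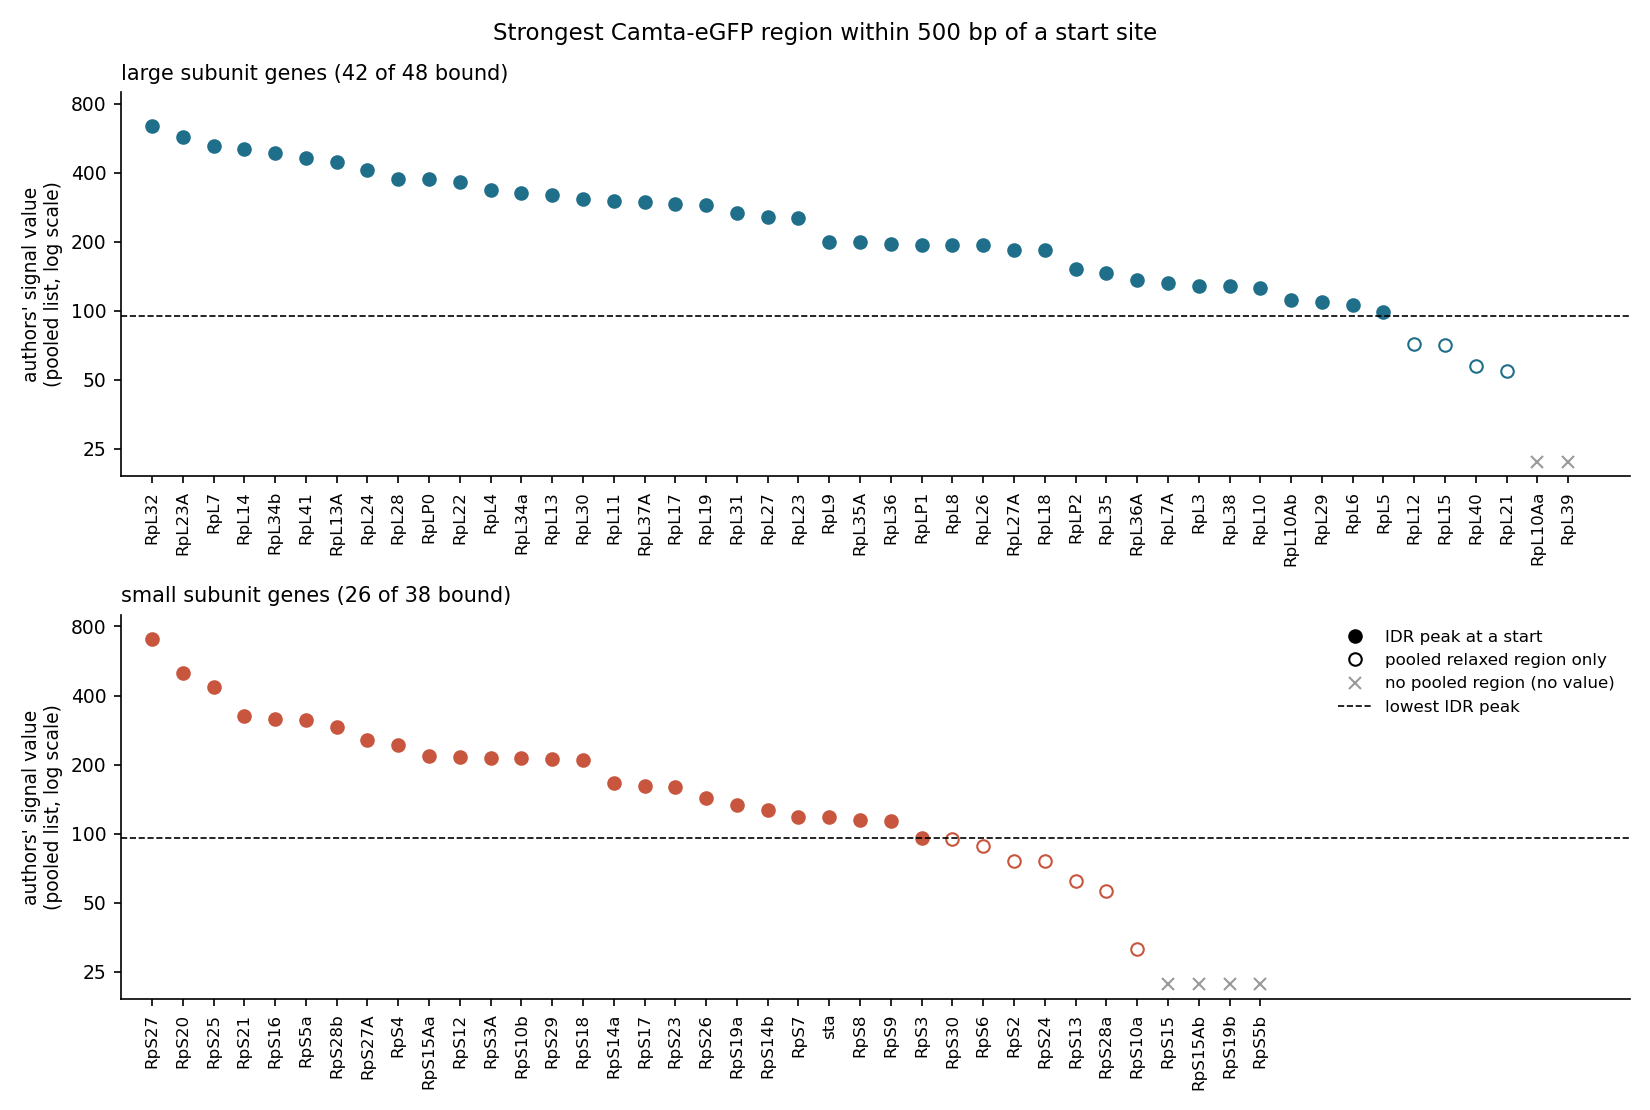
The authors' signal value (log scale) of the strongest region within 500 bp of a start site for 84 of the 86 ribosomal protein genes, large subunit above and small subunit below, sorted from high to low. Filled points are 67 genes with an IDR peak, open points 11 with only a pooled relaxed region and crosses 6 with neither (placed at the foot, with no value), and the dashed line marks the lowest IDR peak at 95.3; RpS27 is the highest at 707.

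The 5 strongest peaks were 1 at a small subunit gene and 4 at large subunit genes, and all 5 ranked high in both replicates. RpS27, a zinc-finger protein of the small subunit, had the highest signal of the 86 genes at 707, rank 76 of the IDR list, with rank 83 in replicate 2 and rank 74 in replicate 3. RpL32, a large subunit protein often used as a reference gene, followed with a signal of 639 (rank 93), with ranks 85 and 93 in replicates 2 and 3. RpL23A, at the exit of the tunnel for the nascent chain, had a signal of 572 (rank 125), with ranks 120 and 118. All 3 ranked almost alike in both replicates. RpL7 had a signal of 523 (rank 157), with ranks 117 and 190, and RpL14 one of 506 (rank 170), with ranks 164 and 184. Their promoters are shown because each carries a pyrimidine run beside the annotated start. They run 5′ to 3′ on the gene's strand from 100 bases before to 20 bases into an annotated start on dm6, at chr3R:25247453-25247572 (minus strand) for RpS27, chr3R:30046142-30046261 (minus) for RpL32, chr3L:1668635-1668754 (minus) for RpL23A, chr2L:10201000-10201119 (plus) for RpL7 and chr3L:8600906-8601025 (plus) for RpL14. Capitals mark the TCT pentamer (TCTTT or CCTTT) and any CGCG core.
RpS27: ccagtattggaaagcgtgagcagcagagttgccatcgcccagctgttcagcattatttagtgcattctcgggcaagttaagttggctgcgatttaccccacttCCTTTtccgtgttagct
RpL32: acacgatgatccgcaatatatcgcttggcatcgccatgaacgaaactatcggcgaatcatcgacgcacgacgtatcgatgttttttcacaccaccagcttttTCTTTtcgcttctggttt
RpL23A: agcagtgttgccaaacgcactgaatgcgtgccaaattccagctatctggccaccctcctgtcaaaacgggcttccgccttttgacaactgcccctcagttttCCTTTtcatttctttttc
RpL7: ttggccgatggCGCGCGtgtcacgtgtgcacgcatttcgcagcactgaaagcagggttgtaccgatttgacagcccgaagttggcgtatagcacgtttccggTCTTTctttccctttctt
RpL14: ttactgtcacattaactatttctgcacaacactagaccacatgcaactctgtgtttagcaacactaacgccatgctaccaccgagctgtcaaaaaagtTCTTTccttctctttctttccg

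In these stretches the summit lay 52 bp upstream of the start shown for RpS27, 85 bp upstream for RpL32, 84 bp for RpL23A, 60 bp for RpL7 and 56 bp for RpL14. RpS27 and RpL7 each have a further annotated start closer to the summit, at 10 bp downstream of it and 36 bp upstream of it, and distances in the rest of the text are to the nearest start. All 5 carry a pyrimidine pentamer beside the start. Of the 5, RpL7 alone carries CGCG in the bases shown, and the CGCG near the summit of RpL32 lies upstream of them.

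The signal of the 68 bound genes had a median of 215 (quartiles 145 and 327, range 96.1 to 707), against 153 (117 and 239) for the other 2551 bound genes and 152 (113 and 224) for the bound mitochondrial ribosomal protein genes. The ratio of the medians for ribosomal protein genes over the other bound genes was 1.40, and the quartile ranges overlap. Among the ribosomal protein genes 15 peaks (22.1%) were among the strongest 10% of the IDR list and 50 (73.5%) among its strongest 2016 peaks, against 12.6% and 53.4% of the other bound genes. The ribosomal protein genes were not at the top of the list: 62 other bound genes had a higher signal than RpS27. Large subunit peaks had a median of 262 (quartiles 160 and 373) and small subunit peaks one of 213 (136 and 283), with 12 of 42 and 3 of 26 among the strongest 10%. Next below the 5 genes shown above came RpS20 at 500 (rank 176), RpL34b at 487 (rank 183), RpL41 at 464 (rank 204), RpL13A at 446 (rank 237) and RpS25 at 437 (rank 244). At the other end stood RpS3, which lines the channel by which mRNA enters, at 96.1 (rank 3980) and RpL5, a carrier of the 5S RNA, at 99.3 (rank 3788). RpL6 at 106 (rank 3411), RpL29 at 109 (rank 3284) and RpL10Ab at 112 (rank 3142) came next. The values of RpS3 and RpL5 lie just above the lowest IDR peak, at 95.3.

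The summits at ribosomal protein genes sat close to the start site, just upstream of it. Their median position was 29 bp upstream (quartiles 54 and 8 bp upstream), against 126 bp upstream (215 and 50.5 bp) at the other bound genes and 152 bp upstream (206 and 84 bp) at the bound mitochondrial ribosomal protein genes. Within 50 bp of a start lay 48 of 68 summits, or 70.6% (58.9 to 80.1%), against 17.0% (434 of 2551) at the other bound genes and 2 of 25 at the mitochondrial set. Within 100 bp lay 65 of 68, against 35.6% of the other bound genes. Upstream of the start were 57 summits, downstream 9, and at the start base itself 2, those of RpL10 and RpS23. RpS20 at 159 bp and RpL23 at 158 bp were among the farthest upstream. The farthest downstream were RpL3, a protein of the peptidyl transferase region, at 39 bp, RpS3 at 38 bp and RpL7 at 36 bp. Every one of the 68 summits lay within 250 bp of a start, well inside the 500 bp limit, and RpS15 at 576 bp and RpS19b at 905 bp upstream were the nearest beyond it.

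**Figure D2:**
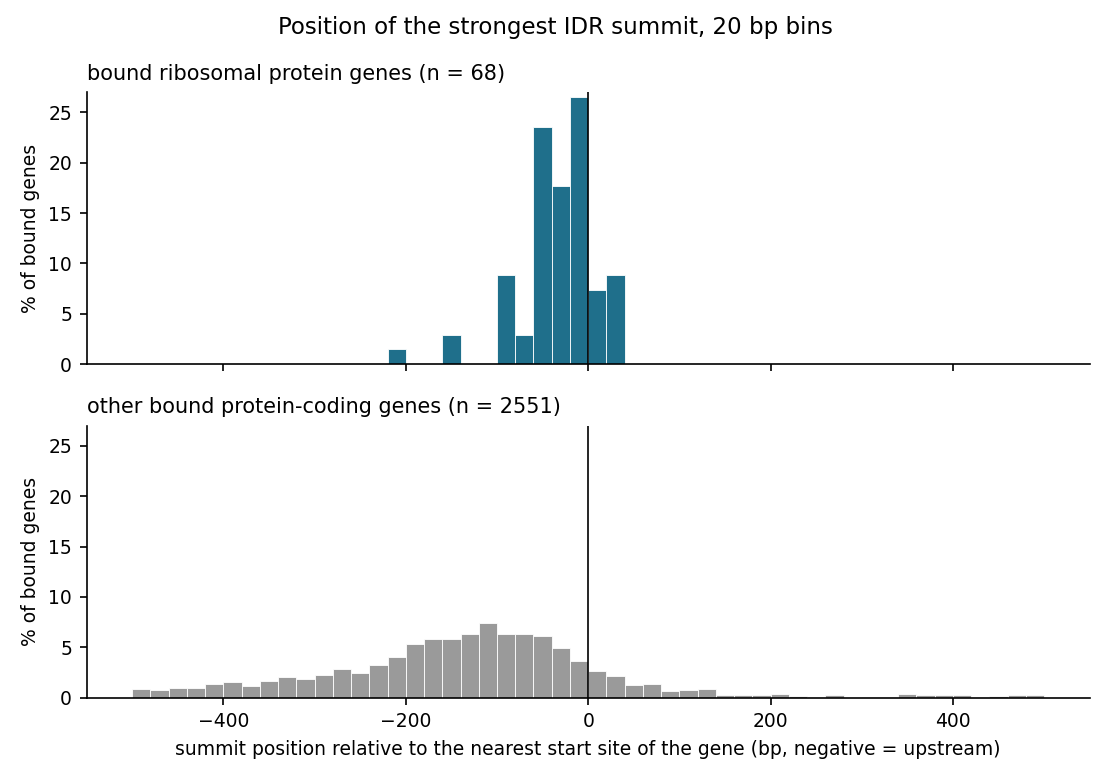
Share of bound genes (y axis, percent) by position of the strongest IDR summit relative to the nearest start site (x axis, bp in 20 bp bins, negative upstream), for the 68 bound ribosomal protein genes above and the 2551 other bound genes below. The ribosomal protein genes form a narrow group whose fullest bin, the 20 bp just upstream of the start, holds 26.5% of them, while the other genes spread far upstream of it.

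The narrow placement was also seen where a gene has few starts or no neighbour. The bound ribosomal protein genes had a median of 2 annotated starts each, and the other bound genes a median of 1, which by itself shortens distances to the nearest start. For genes with exactly 1 start the median position was 49 bp upstream for ribosomal protein genes (n = 30) and 135 bp upstream for other bound genes (n = 1448). For genes whose peak touched no other protein-coding gene it was 20.5 bp upstream (n = 36) and 118 bp upstream (n = 1069), with 28 of 36 and 18.2% within 50 bp. Large and small subunit genes had medians of 31 and 20 bp upstream, with overlapping quartiles (55.8 to 9.75 bp and 47.5 to 3 bp upstream). Each of the 68 genes had a strongest summit of its own, and RpL28, RpL32, RpL34b, RpS25 and RpS5a had more than 1 IDR summit in the window. Peak widths at the ribosomal protein genes had a median of 424 bp, like those of all IDR peaks, with a lower quartile of 229 bp and one of 424 bp over all peaks.

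Both replicates gave a similar order of ribosomal protein genes. Over the 68 bound genes the Spearman correlation of the signal between replicates 2 and 3 was 0.873, against 0.733 over 2539 other bound genes. Over the 80 ribosomal protein genes with a region in both replicates, bound or not, it was 0.917. These correlations are over genes of the same 2 libraries and are given as a description. Bound genes had passed the IDR step across these replicates, so some agreement was built into their choice. Ranks agreed within 2-fold for 52 of the 68 genes (76.5%), against 76.8% of the other bound genes. The rank was higher in replicate 2 for 44 genes and in replicate 3 for 24. The largest gaps were at RpL6 (rank 1737 in replicate 2 and 5990 in replicate 3), RpL26 (2985 and 940) and sta (1698 and 5196). For 65 genes a region among the strongest 4033 of each replicate's own list overlapped the IDR peak. For RpL6, RpS3 and sta such a region was found in 1 replicate alone. Among the bound mitochondrial ribosomal protein genes both replicates had such a region at 19 of 25 (76.0%, 56.6 to 88.5%). The share was not computed over all other bound genes. The summit moved between the replicates by a median of 25 bp at ribosomal protein genes and 28 bp at other bound genes. It lay at a median of 21 bp upstream in replicate 2 and 47.5 bp upstream in replicate 3.

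**Figure D3:**
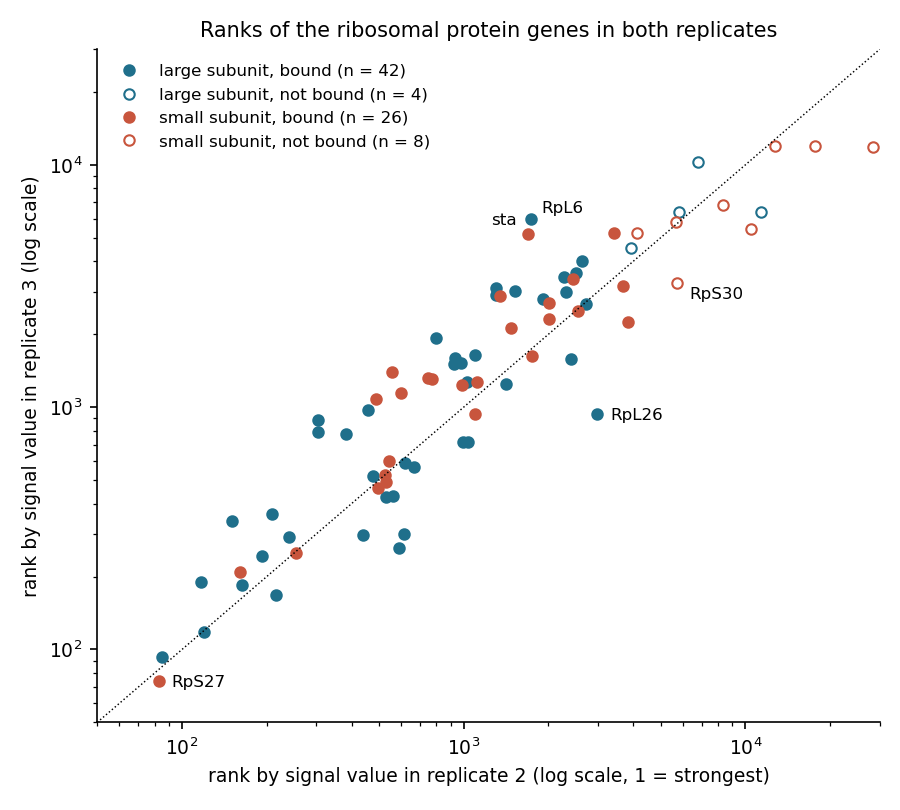
Rank by signal value in replicate 2 (x axis, log scale) against replicate 3 (y axis, log scale) for the 80 ribosomal protein genes with a region in both relaxed lists, rank 1 being the strongest. Filled points are bound genes, open points are not bound, and the dotted line marks equal ranks; RpL6 and sta lie above the line, RpL26 below it, and RpS27 is at the strong end in both.

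By place in the ribosome, bound genes were found in every group examined, where 79.1% of all 86 genes were bound. The groups are small and do not cover all 86 genes, and differences between them were not tested. Of the stalk that recruits translation factors, RpLP0 (375), RpLP1 (195) and RpLP2 (152) were bound, and RpL12, at the stalk's base, was not. Both proteins that carry the 5S RNA were bound, RpL11 with a signal of 302 and RpL5 with one of 99.3. Around the exit of the nascent chain 6 of 7 were bound: RpL23A (572), RpL17 (294), RpL19 (290), RpL31 (267), RpL26 (194) and RpL35 (146), while RpL39 was not. Of the 3 proteins made as fusions to ubiquitin or a ubiquitin-like protein, RpS27A (256) was bound and RpL40 and RpS30 were not. Around the mRNA entry and the decoding centre RpS23 (160), RpS9 (114) and RpS3 (96.1) were bound and RpS2 was not. On the mRNA exit side 8 of 10 genes were bound, with signals between 118 (sta) and 327 (RpS21), and the 2 exceptions were the second copies RpS5b and RpS28a. In the head of the small subunit RpS25 (437), RpS16 (318), RpS18 (209) and RpS19a (133) were bound, and RpS15 and RpS19b were not. The highest and lowest group medians of the signal of bound genes were 279 around the exit of the nascent chain (n = 6) and 114 around the mRNA entry and decoding centre (n = 3).

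Further large subunit genes of high signal were RpL24 (411), RpL28 (377), RpL22 (365) and RpL4 (337), whose protein reaches into the exit tunnel. Of the chromosome arms, 3L had 13 of 14 genes bound, X 13 of 14, 2L 13 of 17, 3R 16 of 22 and 2R 12 of 18, and the single gene on chromosome 4, RpS3A (215), was bound. Many ribosomal protein genes carry small nucleolar RNAs (snoRNAs), guides of ribosomal RNA modification, within their introns. Of the 29 genes that hold a snoRNA gene 26 were bound (89.7%, 73.6 to 96.4%), against 42 of the 57 without one (73.7%, 61.0 to 83.4%), and these intervals overlap. No counts by arm or by snoRNA content are given here for the other protein-coding genes. Neither pattern can therefore be called particular to ribosomal protein genes.

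Duplicated genes usually had a peak at 1 copy alone. The 86 genes include 8 pairs whose symbols differ in a final a or b. Both copies were bound in 2 pairs: RpL34a (327) and RpL34b (487), which lie apart on 3R, and RpS14a (167) and RpS14b (127), both on X. In the other 6 pairs 1 copy was bound. The bound copies were RpS5a (314), RpS28b (292), RpS15Aa (218), RpS10b (214), RpS19a (133) and RpL10Ab (112). Of their partners, RpS28a had a pooled relaxed region with a signal of 56.3 and RpS10a one of 31.4, and RpL10Aa, RpS5b, RpS15Ab and RpS19b had none. All 5 small subunit copies bound alone lie on X, and their unbound partners lie on other arms. Sequences that 2 copies share could divide or lose reads, and the sources used here do not say how the authors treated such reads. Of the 16 genes in pairs 10 were bound (62.5%, 38.6 to 81.5%), against 58 of the 70 in no pair (82.9%, 72.4 to 89.9%).

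**Figure D4:**
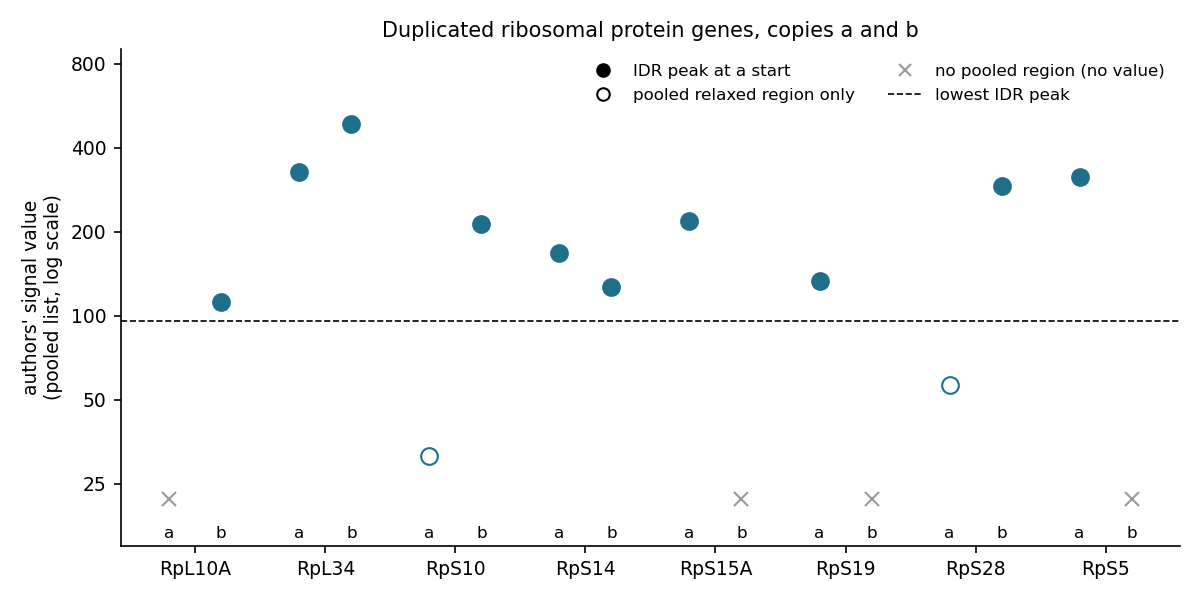
The authors' signal value (log scale) of the strongest region within 500 bp of a start for both copies of the 8 duplicated ribosomal protein genes. Filled points have an IDR peak, open points only a pooled relaxed region, crosses no region (no value), and the dashed line marks the lowest IDR peak; only RpL34 and RpS14 have both copies above it.

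The pair RpS5a and RpS5b, proteins of the mRNA exit side of which the b copy is best known from the ovary, is shown because both copies carry the pyrimidine pentamer and RpS5a alone was bound. The stretches below cover 100 bases before to 20 bases into the start, at chrX:17148245-17148364 (minus strand) and chr3R:14901544-14901663 (minus strand). Capitals mark the TCT pentamer and CGCG.
RpS5a: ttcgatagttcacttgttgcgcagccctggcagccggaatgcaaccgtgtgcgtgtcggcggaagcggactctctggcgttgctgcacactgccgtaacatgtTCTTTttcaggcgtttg
RpS5b: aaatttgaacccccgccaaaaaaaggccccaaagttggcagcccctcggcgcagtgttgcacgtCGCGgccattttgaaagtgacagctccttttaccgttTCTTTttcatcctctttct

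RpS5a, with ranks 532 and 490 in replicates 2 and 3, had a summit 48 bp before the start shown. RpS5b carries both the pentamer and CGCG, had no region in replicate 2, and ranked 9272 in replicate 3. Its nearest IDR summit was 3076 bp away.

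The symbol rule leaves out 7 genes whose names mark them as further relatives of ribosomal proteins. RpL37-1, which encodes a large subunit protein, was bound with a signal of 233 and RpLP0-like with one of 155. RpL24-like and RpL7-like had only pooled regions, with signals of 73.2 and 49.0. RpL22-like, RpS28-like and RpL37-2 had no region at a start.

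Many peaks at ribosomal protein genes also lay at the start of a neighbour. A start of another protein-coding gene lay within 500 bp of the same summit for 32 of 68 genes (47.1%, 35.7 to 58.8%), against 58.1% of the other bound genes and 92.0% of the bound mitochondrial ribosomal protein genes. With a window of 250 bp 16 of 68 shared the peak, against 49.2% of the other bound genes. For 27 genes (39.7%) the neighbour ran the other way and the summit lay between the starts, against 45.5% of the other bound genes. Another gene's start was nearer to the summit at 1 of 68 ribosomal protein genes (1.47%), against 28.8% of the other bound genes and 56.0% of the mitochondrial set.

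The pairs with the highest signals show the layout. The RpS27 peak (707) lay 10 bp upstream of RpS27 and 134 bp from the divergent start of Nup37, a nuclear pore gene. The RpL32 peak (639) lay 85 bp from RpL32 and 224 bp from the divergent CG7943. The RpL7 peak (523) lay downstream of the nearest RpL7 start, and Ripalpha on the opposite strand starts 30 bp from that start. The RpL14 peak (506) lay 56 bp from RpL14 and 71 bp from the divergent start of Nelf-E, a subunit of the factor that pauses RNA polymerase. RpS20 (500) shared its peak with CG17271, RpL34b (487) with CG8132, and RpL41 (464) with the sodium channel gene NaCP60E. RpL13A (446) shared its peak with both Dph4 and Spec2. In each of these divergent pairs the summit was nearer to the ribosomal protein gene, also for RpS20, where it lay 159 bp from RpS20 and 174 bp from CG17271. RpL13 (320) shared its peak with Dref, which encodes the factor that binds the DRE element, the starts being 84 bp apart. RpS27A (256) and Ip259 begin at the same annotated base on the same strand.

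Shared peaks were the stronger ones among the ribosomal protein genes. The 32 genes that shared a peak had a median signal of 319 (quartiles 192 and 439) and the 36 that did not one of 197 (131 and 265), with overlapping quartiles. Among the other bound genes the medians were 158 with a shared peak (n = 1482) and 148 without (n = 1069).

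Of the 18 genes that were not bound, 6 were of the large subunit and 12 of the small subunit. Among them were RpL10Aa, RpL12, RpL15, RpL21, RpL39 and RpL40 of the large subunit and RpS2, RpS5b, RpS6, RpS10a, RpS13, RpS15, RpS15Ab, RpS19b, RpS24, RpS28a and RpS30 of the small subunit. A region of the pooled relaxed list lay at a start of 12 of them (66.7%, 43.8 to 83.7%), against 42.3% of the other unbound genes. Unbound mitochondrial ribosomal protein genes had such a region in 37 of 48 cases (77.1%, 63.5 to 86.7%), so the trait is not particular to the cytosolic set. The regions at the 12 cytosolic genes had a median signal of 66.5 (range 31.4 to 95.2) and those of the other unbound genes one of 48.8. The closest to the list was RpS30, with a signal of 95.2 at rank 4044, 24 bp upstream of a start, and ranks of 5702 in replicate 2 and 3266 in replicate 3. RpS6, the target of S6 kinase, had a signal of 88.3 (rank 4493, 3 bp downstream of the start), and RpS2 (rank 5529) and RpS24 (rank 5555) had signals of 76.3 and 76.0. These 4 had pooled q values at or below 0.01, which none of the other 14 had. RpL12 (71.7), RpL15 (71.1), RpS13 (61.9), RpL40 (57.4), RpS28a (56.3), RpL21 (54.9) and RpS10a (31.4) had lower signals. RpL10Aa, RpL39, RpS5b, RpS15, RpS15Ab and RpS19b had no pooled region at a start. The nearest IDR summit to the 18 genes was a median of 15409 bp away, and for RpL15 it was 4171784 bp away.

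The sequences at the 2 strongest unbound promoters are shown for comparison with those of the strongest bound ones, at chr3R:20850497-20850616 (plus strand) for RpS30 and chrX:7901312-7901431 (minus strand) for RpS6, from 100 bases before to 20 bases into the start. Capitals mark the TCT pentamer and, in RpS6, the DRE.
RpS30: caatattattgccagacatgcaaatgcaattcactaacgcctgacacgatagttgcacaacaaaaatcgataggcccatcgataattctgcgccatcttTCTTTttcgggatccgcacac
RpS6: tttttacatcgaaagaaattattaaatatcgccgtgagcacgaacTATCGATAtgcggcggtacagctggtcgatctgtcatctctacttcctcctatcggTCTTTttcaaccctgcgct

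Both carry the pyrimidine pentamer of the bound genes. The pentamer was searched as TCTTT or CCTTT on the gene's strand with its C (the second base) within 5 bp of an annotated start. It was found at 54 of the 86 ribosomal protein genes, or 62.8% (52.2 to 72.2%), against 2.94% of the other protein-coding genes (408 of 13859) and 2 of the 73 mitochondrial ribosomal protein genes. The C lay a median of 3 bases into the annotated transcript, and between 2 and 5 bases in 45 of the 54. Bound ribosomal protein genes carried it in 45 of 68 cases (66.2%) and unbound ones in 9 of 18. Of the 54 genes with the pentamer 83.3% were bound (71.3 to 91.0%), against 71.9% of the 32 without it (54.6 to 84.4%). Among the other genes 23.3% of the 408 with the pentamer were bound (19.4 to 27.6%), against 18.3% of those without it. In the 45 bound genes with a pentamer the summit lay a median of 53 bp upstream of its C (quartiles 63 and 32 bp).

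The bases around the summits of ribosomal protein genes were rich in G and C and in elements of promoter factors. The search covered both strands in a window of 50 bp to each side of a summit. The DRE, TATCGATA, to which Dref binds, was present at 15 of 68 summits (22.1%, 13.8 to 33.3%), against 4.0% of the summits of other bound genes. Its core CGATA, which is also counted inside each DRE, was present at 45.6% and 24.7%. Motif 1, searched as GGTCACAC and bound by M1BP, was present at 8 of 68 (11.8%, 6.08 to 21.5%) and 2.20%. CGCG, the core recognised by the Camta family, was present at 26 of 68 (38.2%, 27.6 to 50.1%) and 13.5%. Low shares were found for TATAAA, the TATA box, at 7.35% and 18.1%, and for GAGAG, the site of the GAGA factor, at 2.94% and 8.55%. CAGCTG, an E-box, was present at 5.88% and 5.80%. None of the 25 bound mitochondrial ribosomal protein genes had the DRE, Motif 1 or CGCG within 50 bp of the summit, which allows shares of up to 13.3% by the Wilson interval. Their summits lay farther from a start, at a median of 152 bp upstream, and these motifs did occur in their whole promoters, described below.

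**Figure D5:**
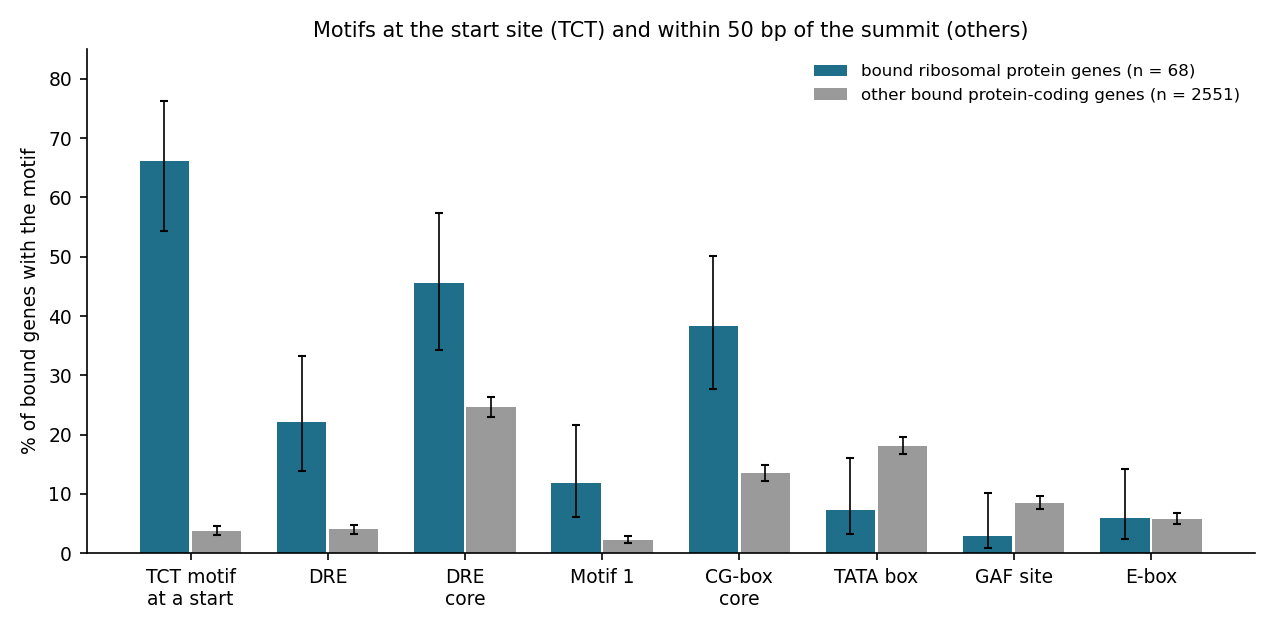
Share of bound genes (y axis, percent) with the TCT motif at a start site or with each of 7 motifs within 50 bp of the summit, for the 68 bound ribosomal protein genes (blue) and the 2551 other bound genes (grey); bars are shares and error bars are 95% Wilson intervals. The intervals do not overlap for TCT, DRE, its core, Motif 1 and CG-box core (CGCG), all higher at ribosomal protein genes, nor for the TATA box, which is lower there, and they overlap for the GAF site (GAGAG) and the E-box.

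Base composition and position moved with these shares. The 101 bases around the summit held a median of 47.5% G and C at ribosomal protein genes and 34.7% at other bound genes. For summits within 50 bp of a start the medians were closer, at 49.0% (n = 48) and 43.6% (n = 434). CGCG was found at 39.6% of ribosomal protein summits within 50 bp of a start (n = 48), against 23.3% of such summits at other bound genes (n = 434). In windows of at least 45% G and C it was found at 44.4% (n = 45) and 33.3% (n = 496), with overlapping intervals (30.9 to 58.8% and 29.3 to 37.5%). In windows below 45% it was found at 26.1% (n = 23) and 8.76% (n = 2055). The DRE was found at 24.4% and 10.1% of the windows of at least 45% G and C, and at 22.9% (13.3 to 36.5%) and 11.1% (8.44 to 14.4%) of the summits within 50 bp of a start. Motif 1 was found at 8.89% and 5.85% of the GC-rich windows, with overlapping intervals (3.51 to 20.7% and 4.10 to 8.27%), and at 16.7% (8.70 to 29.6%) and 5.07% (3.37 to 7.56%) of the summits within 50 bp of a start. Within the ribosomal protein genes the signal differed little by motif: the median was 231 with CGCG and 213 without, 216 with the DRE and 215 without, and 246 with Motif 1 and 215 without.

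The same motifs were counted in whole promoters, from 250 bases before to 50 bases after the start, of all genes whether bound or not. The start was the one nearest the strongest summit for bound genes and the most upstream one for unbound genes. The windows of bound and unbound genes were thus chosen differently, and more of the ribosomal protein genes were bound. The DRE was present in 27.9% of the 86 ribosomal protein promoters and 9.13% of the others, Motif 1 in 16.3% and 7.5%, and CGCG in 54.7% and 40.8%. TATAAA was present in 47.7% and 45.6%, so its low share near the summits was not seen over whole promoters. GAGAG was present in 17.4% and 30.3%, and CAGCTG in 9.30% and 17.9%. The G and C content of these promoters was a median of 36.7% for ribosomal protein genes and 38% for the others. Bound ribosomal protein genes carried CGCG in 40 of 68 promoters and unbound ones in 7 of 18, and the DRE in 18 of 68 and 6 of 18. In the bound promoters that carry them, the centre of the DRE nearest the start lay a median of 53.5 bp upstream (n = 18), that of CGCG 23 bp upstream (n = 40) and that of GGTCACAC (Motif 1) a median of 17.5 bp upstream (n = 13). A match is a description of the letters and not of a bound site.

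Genes that act with ribosomal proteins were examined in 2 lists, and 18.4% of all protein-coding genes outside the ribosomal protein set were bound. Of 24 genes of ribosome assembly 8 were bound (33.3%), with a median signal of 188. Among them were eIF6 (573), an anti-association factor of the large subunit, Ns2 (569) and Rrp1 (189). In the fly Rrp1 is a DNA repair enzyme, recombination repair protein 1, which entered the list by its symbol, and without it 7 of 23 genes were bound (30.4%). Of 20 genes that regulate ribosomal protein genes or their translation 12 were bound (60.0%), with a median signal of 152. The strongest were larp (1096), an RNA-binding regulator of mRNAs with pyrimidine starts, REPTOR (455), a transcription factor downstream of TOR, Dref (320), through the peak it shares with RpL13, and Rack1 (276), a protein of the small subunit itself. Trf2 (156) and M1BP (99.4), named above as factors of these promoters, were bound too, M1BP with a signal near that of the lowest IDR peak. Relative to a start (negative upstream), the summits lay at -339 bp for larp, -167 bp for REPTOR, -56 bp for Dref and -20 bp for Rack1. Those of Trf2 and M1BP lay at 65 bp and -363 bp.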

How the data were processed

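Peak lists on dm6 were used as deposited, in the narrowPeak layout without a header. Per the labels, the authors precipitated Camta-eGFP with anti-GFP from embryos of 2 biological replicates after sonication. The authors' signal value per region (scaling not stated) ranks regions within a list, and levels of different lists were not compared. The authors' −log10 of the q value served for a q limit of 0.01. The deposited summit offset was added to the region start. All 4033 IDR peaks carry the signal of the pooled list. The sources used here name neither the aligner nor the peak caller. Lists on dm3 were not used.

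Start sites came from Ensembl release 115 (BDGP 6.54) and sequence from RefSeq Release 6. Counts, medians and Wilson intervals were computed with Python 3.11.15, pandas 2.3.3 and statsmodels 0.14.6. The rule that ties a summit to a gene, the TCT search and the search for genes near a summit were checked on simulated data. Members, gene lists and role groups were chosen with earlier results of these data known, so no tests were run. All members could be named, with full values for the 10 strongest and 5 weakest bound members, the unbound ones, the duplicated ones, the first 8 sharing a peak and those at extremes of position or replicate rank. A few items are not reported here. Alternatives covered the window, the replicates, the threshold, the nearest start and the motif windows.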

Additional observations from a re-analysis of the deposited data

How the results depend on the processing

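The number of bound ribosomal protein genes was 68 with a window of 250 bp and 70 with one of 1000 bp (adding RpS15 and RpS19b). It was 66 without replicate 2 (losing RpL6, RpS3 and sta, gaining RpS30), 69 without replicate 3 (gaining RpL12), 50 with the strongest 2016 IDR peaks, 72 with pooled regions of q at or below 0.01 (adding RpS2, RpS6, RpS24 and RpS30) and 67 with each peak given to its nearest start. The median summit position of ribosomal protein genes stayed between 47.5 and 21 bp upstream. That of the other bound genes lay between -137 bp with the strongest 2016 peaks and -91.5 bp with the nearest start (negative upstream). With the nearest start the ribosomal protein genes had a median of -28 bp. Of 67 values under alternatives 52 stayed within limits set for each kind of value and 15 moved. A change of direction was possible only for positions and ratios, and 0 were found, while counts, shares and signals could not show one. The median signal was 91.7 to 129 in the lists without a replicate, which are on another scale, and 293 for the strongest 2016 peaks. Its ratio to the other bound genes, an alternative measure chosen after seeing the data, was 1.26 for those 2016 peaks and 1.66 with the q limit. At 250 bp 16 genes shared a peak, against 49.2% of the other bound genes. With the C exactly at the start, the TCT pentamer was left at 3 genes (0.303% of the others), and with 10 bp at 72 (5.87%). Within 100 bp of the summit the shares at ribosomal protein genes and other bound genes were 63.2% and 41.6% for CGATA, 54.4% and 26.6% for CGCG, 23.5% and 33.0% for TATAAA and 8.82% and 18.8% for GAGAG. Within 25 bp they were 10.3% and 1.84% for the DRE, 25% and 14.5% for CGATA, 17.6% and 5.61% for CGCG and 7.35% and 0.941% for Motif 1. For CAGCTG the shares were 5.88% and 5.80% within 50 bp, but 5.88% and 14.3% within 100 bp, lower at ribosomal protein genes. The ratio of CGCG shares, 2.83 over all summits, was 1.70 within 50 bp of a start and 1.34 in windows of at least 45% G and C, both strata chosen after seeing the data. No paired analysis was possible because all samples form 1 group. Depth is unknown, so an absent peak is not evidence of no binding.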

Other observations

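Words of 8 bases were counted on both strands within 50 bp of the summits, and those below were chosen after their values were seen, so their shares are a description. AAAAGAAA, the complement of a pyrimidine run, stood at 12 of 68 summits of ribosomal protein genes (17.6%) and 2.74% of those of other bound genes. AAGTTGGC, which contains none of the motifs searched above, stood at 10 of 68 (14.7%) and 0.941%, and AAATACCA at 10 of 68 and 1.65%. CGGAAACG stood at 8 of 68 (11.8%) and 0.314%, and AGTGTGGC at 8 of 68 and 0.745%. At other bound genes whose summit lay within 50 bp of a start (n = 434), the shares of AAGTTGGC and CGGAAACG were 1.15% and 0.461%.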
